A study of Mus musculus with 25 samples.

Results

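The comparison of 4 libraries of mouse bone marrow neutrophils was made to ask what the loss of Ripk3 adds where Casp8, Mlkl and Ptpn6 are already deleted. The Ripk3-null group was Ripk3-/- Mlkl-/- Casp8∆PMN Ptpn6∆PMN (2 libraries), and the Ripk3-intact group was Casp8∆PMN Mlkl-/- Ptpn6∆PMN (2 libraries). They were chosen by genotype label from the 25 libraries of the series. All 4 came from female C57BL/6J mice of 6 to 13 weeks that the labels mark as not inflamed. Both groups therefore carried the Mlkl knockout and the deletion of Casp8 and Ptpn6 in neutrophils, and differed by the Ripk3 knockout. The Cre driver behind ∆PMN is not given in the sources used here. The labels do not say that the libraries of a group came from separate mice. The p-values rest on the spread between libraries within the 9 groups of the 23 libraries fitted, not on these 4 alone, and that spread may be technical.

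RIPK3 is a kinase that starts necroptosis, a lytic form of cell death, by phosphorylating the membrane-disrupting protein MLKL. Caspase-8 cuts RIPK1 and RIPK3, which restrains necroptosis, and it also starts apoptosis and can process inflammatory cytokines. SHP-1, the phosphatase that Ptpn6 encodes, dampens signalling downstream of cytokine and immunoreceptors in myeloid cells. Both RIPK3 and caspase-8 also have roles in inflammatory signalling that do not require MLKL. With Mlkl deleted in both groups and Casp8 deleted in the neutrophils of both, the comparison is aimed at RIPK3's work in neutrophils that requires neither. It is not limited to that work. The labels confine the Casp8 deletion, but not the Ripk3 knockout, to neutrophils, and some Casp8 transcript remained, as given below.

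Neutrophils had been collected at the interface of 68% and 78% Percoll, and enriched mRNA was sequenced as paired reads of 100 bases. The 4 libraries held 21598177 to 22783479 estimated counts each, within the 21598177 to 23187676 of all 25. The values below are CPM, counts divided by a library size scaled by TMM, a method that sets the typical gene equal between libraries. The 4 TMM factors were 0.869 and 0.904 for the Ripk3-intact libraries and 1.014 and 0.949 for the Ripk3-null ones. Scaling to total counts instead, an alternative added after seeing the data, moved the median log2 change of all genes from -0.0017 to 0.145 and the share of genes below 0 from 50.1% to 32.3%. Directions below are therefore relative to the typical gene. All 12 neutrophil markers fixed for the check of the label were present, with a sum of 92724 to 146170 CPM in the 4 libraries.

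Ripk3 itself was nearly gone from the Ripk3-null libraries. It stood at 3.19 and 5.25 CPM in the Ripk3-intact libraries and at 0 and 0.0476 CPM in the Ripk3-null libraries. These values rest on 171 estimated counts against 1, a level in the null libraries of 0.550% of the intact one with an exact 95% counting interval from 0.0138% to 3.11%, which covers counting error only. By the edgeR quasi-likelihood test Ripk3 fell by 7.19 (log2, SE 0.72), with a Benjamini-Hochberg adjusted p of 0.000108 over 16206 genes. In wild type Ripk3 lay between 8.63 and 10.5 CPM, above both Ripk3-intact libraries. The word intact therefore refers to the genotype, not to a wild-type level. The gene lies at chr14:55784995-55788857 of GRCm38.p6.

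The other targeted genes, deleted in both groups by design, did not pass the test. Mlkl was low in all 4 libraries, at 1.16 and 1.65 CPM in the Ripk3-intact libraries and at 0.822 and 0.666 CPM in the Ripk3-null ones, with a log2 change of -0.91 (SE 0.50) and no overlap between the groups. The 3 wild-type libraries held between 3.52 and 4.88 CPM. Casp8 stood at 17.6 and 21.9 CPM against 16.4 and 23.7 CPM, overlapping groups with a log2 change of 0.02 (SE 0.18). In wild type it lay between 33.8 and 38.1 CPM. Ptpn6 stood at 235 and 240 CPM against 280 and 256 CPM, without overlap and higher in both null libraries, with a log2 change of 0.17 (SE 0.19), and at 574 to 616 CPM in wild type. Which part of each gene is deleted is not given in the sources used here, so the transcripts that remain cannot be assigned to undeleted cells or to the undeleted part of the gene. Ap1s1 and Sh2b2, on chromosome 5, were named by the same rule as the targeted genes and had log2 changes of -0.30 (SE 0.27) and 0.25 (SE 0.29).

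**Figure D1:**
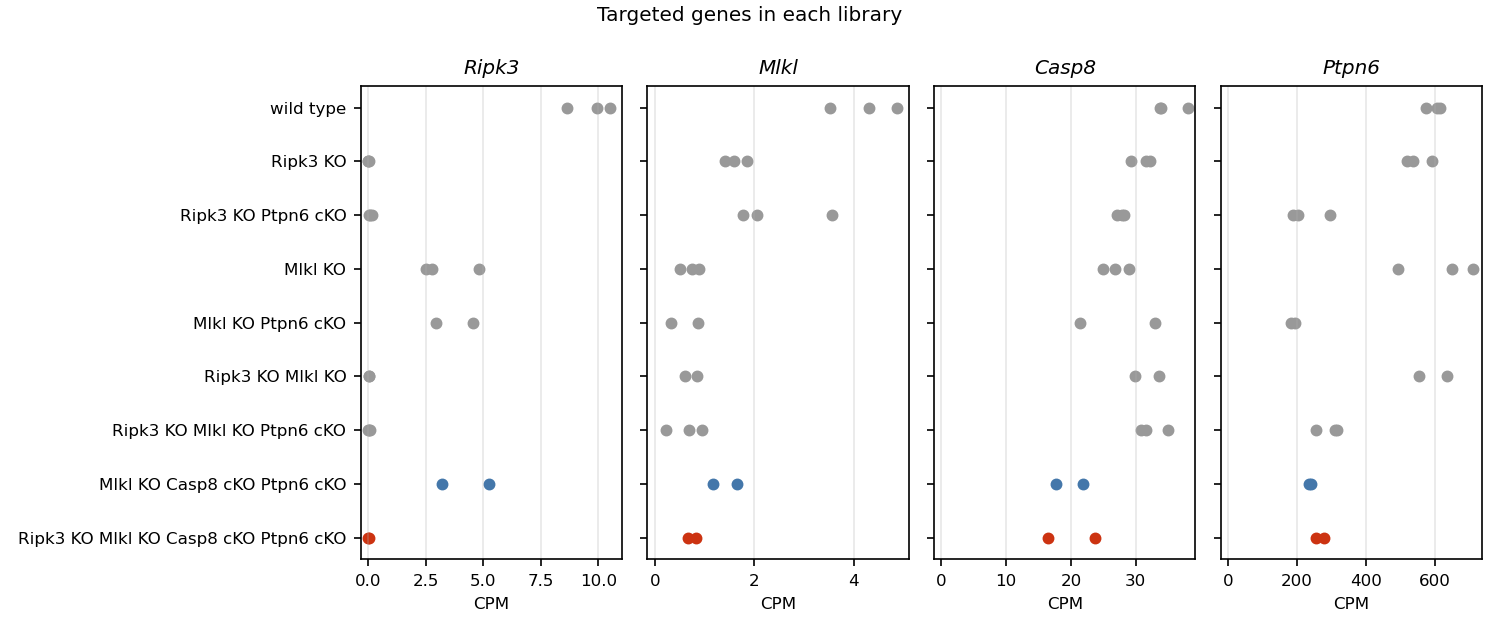
CPM of the 4 targeted genes on linear axes from 0, with 1 point per library and 1 row per genotype group (23 libraries, 9 groups). The Ripk3-intact libraries of this comparison are blue and the Ripk3-null ones red. Ripk3 is at or near 0 in the red libraries and at 3.19 and 5.25 CPM in the blue ones, while Casp8 overlaps between them.

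Ripk3 was the only gene that passed the edgeR quasi-likelihood test at an adjusted p under 0.05 among 16206 genes (0.00617% called lower, and 0 higher). At an unadjusted p under 0.05 there were 1177 genes (7.26%), of which 754 (4.65%) were lower and 423 (2.61%) higher in the Ripk3-null libraries. DESeq2 called 3 genes, Ripk3 and a pair of predicted genes. Among 8814 genes of at least 5 CPM, the fitted change between the groups was past 2-fold for 64. The Ripk3-intact libraries differed from each other by more than 2-fold at 132 of those genes and the Ripk3-null libraries at 66. The median size of the log2 difference was 0.165 between groups, 0.174 between the intact libraries and 0.139 between the null ones. The first is a difference of means of 2 libraries and the others are differences of single libraries, so these sizes are not on one footing. The first principal component of the 4 libraries, with 51.1% of their variance, placed the intact libraries at -20.93 and -5.36 and the null libraries at 18.50 and 7.79.

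On the lower side no gene but Ripk3 passed. The 12 smallest p-values among genes of at least 5 CPM whose groups did not overlap belonged to Atp5l, Rbx1, Cox17, Myeov2, Rnf8, Grcc10, Ndufv2, Mrpl24, Trappc2, Bud31, Atf4 and Deb1, at edgeR adjusted p-values of 0.547 to 0.569. Atp5l, a subunit of ATP synthase, stood at 101 and 103 CPM in the Ripk3-intact libraries and at 54.8 and 61.5 CPM in the Ripk3-null ones, a log2 change of -0.81 (SE 0.17). Cox17, the copper chaperone of cytochrome c oxidase, stood at 32.3 and 37.0 CPM against 18.6 and 18.9 CPM (log2 change -0.88, SE 0.20). Rbx1, the RING subunit of cullin ubiquitin ligases, stood at 44.3 and 48.2 CPM against 26.1 and 32.7 CPM (log2 change -0.65, SE 0.14). Atf4, the transcription factor of the integrated stress response, stood at 118 and 118 CPM against 80.7 and 90.0 CPM (log2 change -0.46, SE 0.12). In each of these the lower intact library was above the higher null library, as it was at 22.9% of all genes.

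On the higher side the same rule took Card6, Rest, Psme2b, Bahd1, Adnp, Pik3r4, Zfp646, Xylt1, Vat1, Polr2a, Zfp318 and Wdr81, at edgeR adjusted p-values of 0.547 to 0.569. Card6, a protein with a caspase recruitment domain, stood at 103 and 87.8 CPM in the Ripk3-intact libraries and at 144 and 128 CPM in the Ripk3-null ones, a log2 change of 0.51 (SE 0.12). Polr2a, the largest subunit of RNA polymerase II, stood at 151 and 122 CPM against 217 and 175 CPM (log2 change 0.52, SE 0.16). Rest, a repressor of neuronal genes, stood at 13.9 and 11.4 CPM against 20.8 and 17.7 CPM (log2 change 0.61, SE 0.14). Groups did not overlap in this direction at 20.7% of all genes. Psme2b is a near-identical copy of Psme2, so the division of reads between them is uncertain. Psme2b stood at 5.57 and 5.59 CPM against 12.2 and 9.57 CPM, while Psme2, picked after its values were seen, stood at 54.0 and 65.2 CPM against 39.3 and 46.1 CPM.

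Specific granule genes lay lower in the Ripk3-null libraries as a group, though none passed the test. These genes encode the antimicrobial cargo that neutrophils pack at the myelocyte and metamyelocyte stages of maturation. Of the 18 members tested, 18 had a log2 change below 0, where 50.1% of all genes did, and at 17 the groups did not overlap in that direction, where 22.9% of all genes did. The median log2 change was -0.43, beside -0.0017 for all genes. The members summed to 74822 and 79488 CPM in the Ripk3-intact libraries and to 43912 and 56171 CPM in the Ripk3-null ones, so both null libraries were below both intact ones. The median was -0.66 without Ripk3-null replicate 2 and -0.28 without Ripk3-null replicate 1, and 18 members stayed below 0 each time. Under total count scaling the median was -0.29, again with 18 below 0. With the mean level of B cell markers as a covariate it was -0.20, with 17 below 0.

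Camp, which encodes the antimicrobial peptide cathelicidin, was the member furthest below 0. It stood at 4357 and 5270.2 CPM in the Ripk3-intact libraries and at 1827 and 2414 CPM in the Ripk3-null ones, a difference of -1.18 on the log2 scale (SE 0.39) that missed the edgeR threshold (adjusted p = 0.600). Both null libraries lay below both intact ones. Ngp, neutrophilic granule protein, stood at 25700.5 and 28081.5 CPM against 14353.5 and 19065.6 CPM (log2 change -0.69, SE 0.41). Ltf, which encodes the iron-binding protein lactoferrin, stood at 12830.3 and 14973 CPM against 8110.4 and 9739 CPM (log2 change -0.64, SE 0.39). Lcn2, whose product lipocalin 2 binds bacterial siderophores, stood at 11592 and 10874 CPM against 6408 and 8610.2 CPM (log2 change -0.58, SE 0.34). Orm1 and Ifitm6 had log2 changes of -0.89 (SE 0.45) and -0.72 (SE 0.41). Itgb2l was the only member whose groups overlapped, at 900.5 and 795 CPM against 625 and 812 CPM. In each of Camp, Ngp, Ltf and Lcn2 the first null library was the lowest of the 4.

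The proximal promoters of 3 of these genes are shown because their windows hold a match to a C/EBP-type motif, and a C/EBP family factor is known to drive this granule programme. Each line gives the 250 bases before the RefSeq transcription start on the strand of the gene (GRCm38.p6), and capitals mark matches to the letters TTGCNNAA on either strand (TTNNGCAA on the other), with no other motif searched.
Ngp: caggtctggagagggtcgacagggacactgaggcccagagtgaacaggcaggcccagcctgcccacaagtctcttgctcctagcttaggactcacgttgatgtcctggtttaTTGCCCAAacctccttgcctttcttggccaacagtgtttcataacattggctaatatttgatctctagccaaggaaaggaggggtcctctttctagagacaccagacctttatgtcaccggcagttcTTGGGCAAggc
Ltf: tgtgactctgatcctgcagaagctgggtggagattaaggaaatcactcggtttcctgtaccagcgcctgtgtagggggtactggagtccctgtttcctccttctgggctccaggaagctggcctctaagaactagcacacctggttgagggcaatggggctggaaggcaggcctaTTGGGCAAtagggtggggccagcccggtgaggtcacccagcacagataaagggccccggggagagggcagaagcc
Lcn2: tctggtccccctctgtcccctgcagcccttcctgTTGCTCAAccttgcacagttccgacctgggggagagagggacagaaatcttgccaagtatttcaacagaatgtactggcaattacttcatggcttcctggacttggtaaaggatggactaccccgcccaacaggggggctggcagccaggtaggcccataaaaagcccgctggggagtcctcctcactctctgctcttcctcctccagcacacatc
The Ngp window is chr9:110419558-110419807 on the plus strand and holds 2 matches, which begin 138 and 11 bases before the start. The Ltf window is chr9:111019042-111019291 on the plus strand with 1 match, 75 bases before the start. The Lcn2 window is chr2:32387740-32387989 on the minus strand with 1 match, 216 bases before the start. A match was present in 9.56% of the 32851 windows of 27025 RefSeq genes and in 5 of the 17 windows of the 15 specific granule genes that had one (29.4%). The 3 shown were picked among the abundant members described above because they hold a match, so they do not stand for the list. Camp, the member furthest below 0, is not shown. A match is a description of the letters, not of binding.

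Of the 12 neutrophil markers, 11 lay below 0 with a median log2 change of -0.49. At 8 the groups did not overlap in that direction (66.7%, against 22.9% of all genes). Mean log2(CPM + 0.5) of the 12 was 13.00 and 12.92 in the Ripk3-intact libraries and 12.41 and 12.66 in the Ripk3-null ones. In wild type it was 12.23 to 12.42. However, 5 of the 12 are also members of the specific granule list, and the rest belong to the gelatinase granule and maturation list below. The marker list is therefore not independent of those lists. S100a8, a subunit of the antimicrobial protein calprotectin, stood at 17125 and 18094 CPM in the Ripk3-intact libraries and at 10039.8 and 13082 CPM in the Ripk3-null ones (log2 change -0.61, SE 0.34). Its partner S100a9 stood at 38001 and 37209 CPM against 22615 and 29081 CPM (log2 change -0.54, SE 0.34). Among 22 genes of gelatinase granules and late maturation, 17 lay below 0 with a median of -0.13, and 11 had groups not overlapping lower (50%) against 1 higher (4.55%), where all genes had 22.9% and 20.7%. Under total count scaling that median was 0.01, and without Ripk3-intact replicate 1 it was -0.0214. Wfdc21 was the lowest of them, at 678 and 828 CPM against 383 and 529 CPM (log2 change -0.72, SE 0.32). Pira2, an activating paired immunoglobulin-like receptor of a family of near-identical genes, was the only one of the 5 members above 0 whose groups did not overlap, at 69.1 and 140 CPM against 316 and 312 CPM (log2 change 1.59, SE 0.71, adjusted p by edgeR 0.648).

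Azurophil granule genes, which neutrophil precursors transcribe at the promyelocyte stage, did not lie to one side, with 7 of 14 below 0 and a median of 0.04, which was -0.134 without Ripk3-null replicate 1. The furthest above 0 were set by 1 library. Mpo, myeloperoxidase, stood at 54.1 and 97.8 CPM in the Ripk3-intact libraries and at 287 and 86.2 CPM in the Ripk3-null ones (log2 change 1.30, SE 0.88). Elane, neutrophil elastase, stood at 7.85 and 16.9 CPM against 44.7 and 11.1 CPM (log2 change 1.17, SE 0.96), and was -0.13 without Ripk3-null replicate 1. Only that first null library was high in either gene. The abundant surface lectin Clec12a, on the same list, lay lower, at 388 and 438 CPM against 286 and 325 CPM (log2 change -0.43, SE 0.22).

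**Figure D2:**
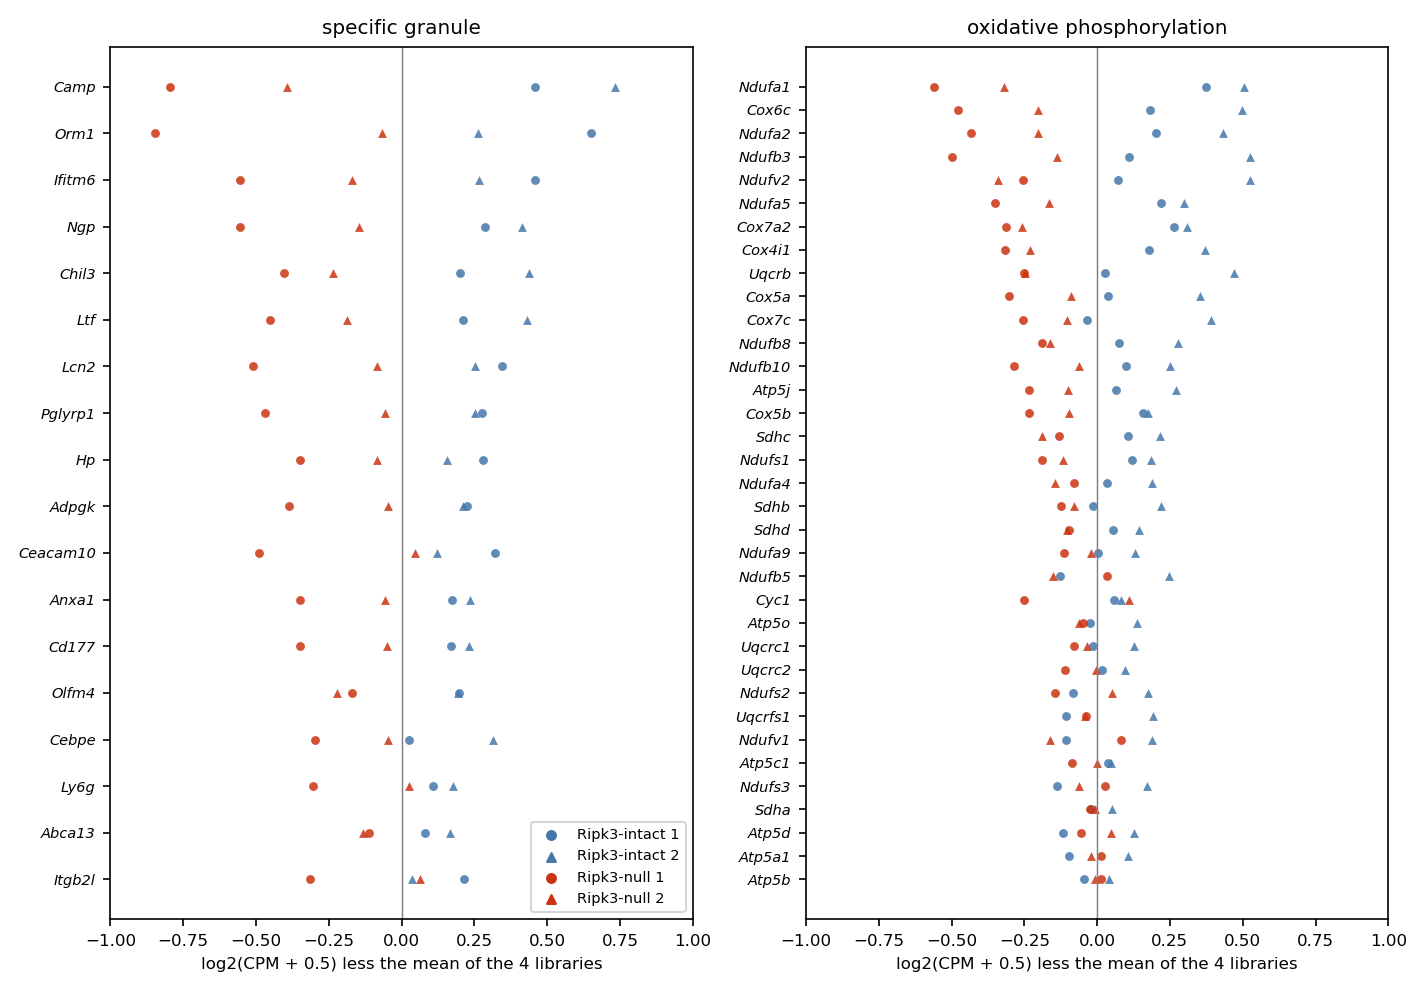
log2(CPM + 0.5) of each gene less its mean over the 4 libraries, for the 18 specific granule genes and the 35 oxidative phosphorylation genes, ordered by fitted change. Blue marks are the Ripk3-intact libraries and red marks the Ripk3-null ones, circles replicate 1 and triangles replicate 2. At 17 of 18 and 25 of 35 genes both red marks lie left of both blue ones.

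Genes of oxidative phosphorylation, the mitochondrial respiratory chain and ATP synthase, lay lower in 34 of 35 cases, with a median log2 change of -0.23. Groups did not overlap at 25, all lower, where 22.9% of all genes did. An unadjusted p under 0.05 was reached at 15, all lower, where 4.65% of all genes reached it in that direction. None passed the adjusted test. Ndufa1, a small subunit of complex I, stood at 30.8 and 33.8 CPM in the Ripk3-intact libraries and at 15.9 and 18.8 CPM in the Ripk3-null ones (log2 change -0.90, SE 0.23). Cox6c, of complex IV, stood at 29.5 and 36.8 CPM against 18.5 and 22.5 CPM (log2 change -0.70, SE 0.20). Cox4i1, also of complex IV, stood at 121 and 139 CPM against 85.9 and 91.2 CPM (log2 change -0.55, SE 0.15). At all 3 both null libraries lay below both intact ones. Atp5b, the catalytic subunit of ATP synthase, did not separate, at 236 and 250.3 CPM against 245 and 242 CPM (log2 change 0.00, SE 0.12).

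This pattern went with transcript length. Across 14430 genes with a length, Spearman's rho between log2 change and the length of the longest coding transcript was 0.258, against 0.079 for its GC content. The median log2 change was -0.24 for the 251 genes of up to 500 bases, -0.22 for 921 genes of 500 to 1000 bases, and 0.12 for 2753 genes above 5000 bases. The difference between genes under 1000 bases and those over 3000 bases, taken in each library against the mean of all libraries, was 0.132 and 0.191 on the log2 scale in the Ripk3-intact libraries. It was -0.092 and -0.038 in the Ripk3-null libraries and -0.119 to 0.064 in the other 19. The 2 intact libraries were thus the highest of all 23. Read against the median of their length class, the oxidative phosphorylation genes had a median of -0.11 with 26 of 35 below, and the specific granule genes one of -0.37 with 18 of 18 below. With the length trend of each library removed, an alternative added after seeing the data, the medians were -0.09 and -0.41. Under total count scaling the oxidative phosphorylation median was -0.08 with 20 of 35 below 0. Its count below 0 was 26 without Ripk3-intact replicate 2 and 35 without Ripk3-intact replicate 1. The part of length, RNA quality or library preparation in these values was not tested.

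**Figure D3:**
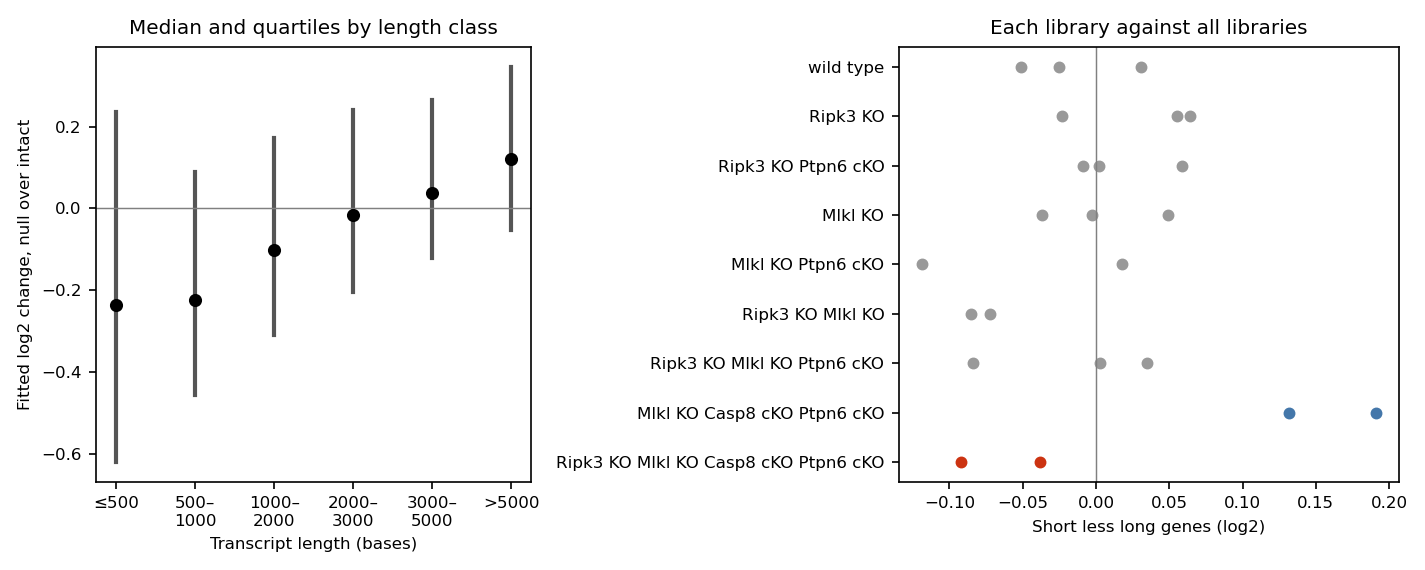
Left, median (point) and quartiles (bar) of the fitted log2 change in classes of transcript length in bases. Right, log2 level of short genes (under 1000 bases) less long genes (over 3000 bases) in each library relative to all libraries, by group, with the Ripk3-intact libraries blue and the Ripk3-null ones red. Medians go from -0.24 in the shortest class to 0.12 in the longest, and the blue points at 0.132 and 0.191 are the highest.

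Genes of the NADPH oxidase, which makes the respiratory burst, and of antioxidant defence lay below 0 in 17 of 22 cases, with a median log2 change of -0.26 and 12 groups not overlapping lower (54.5%) against 1 higher (4.55%), where all genes had 22.9% and 20.7%. Cyba, the membrane subunit p22phox, stood at 709 and 717 CPM in the Ripk3-intact libraries and at 459 and 536 CPM in the Ripk3-null ones (log2 change -0.52, SE 0.22). Txn1, thioredoxin, stood at 511 and 578 CPM against 319 and 389 CPM (log2 change -0.62, SE 0.22). Prdx5, a peroxiredoxin, stood at 1209 and 1234 CPM against 796 and 970 CPM (log2 change -0.47, SE 0.25). In all 3 the null libraries lay below the intact ones, with the first null library lowest. Against their length class 17 of 22 members were below, with a median of -0.24, and under total count scaling the median was -0.12.

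Among the genes of the death-inducing complexes Ripk3 alone passed the test. Of 24 tested, 18 lay below 0, and the median log2 change was -0.06, which was 0.09 under total count scaling. Mlkl, also a member, had the next lowest log2 change, -0.91, as given above. Tnfrsf1a, the TNF receptor that assembles these complexes, stood at 461 and 412 CPM in the Ripk3-intact libraries and at 465 and 461 CPM in the Ripk3-null ones (log2 change 0.09, SE 0.17). Tnfaip3, which encodes the deubiquitinase A20, stood at 29.1 and 23.4 CPM against 27.7 and 32.3 CPM (log2 change 0.19, SE 0.17). Zbp1, the nucleic acid sensor that binds RIPK3, overlapped between groups at 54.0 and 60.7 CPM against 37.3 and 58.9 CPM (log2 change -0.25, SE 0.39). Tlr3 was under 0.5 CPM in all 4 libraries. Groups did not overlap at 4 members lower, Ripk3 and Mlkl included, and 1 higher, and these are shares of 16.7% and 4.17%, where all genes had 22.9% and 20.7%.

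Inflammasome genes did not lie to one side, with 9 of 19 below 0 and a median of 0.01. Casp4, the caspase that senses cytosolic lipopolysaccharide, stood at 70.4 and 58.9 CPM in the Ripk3-intact libraries and at 38.2 and 50.3 CPM in the Ripk3-null ones (log2 change -0.55, SE 0.31). Il1b, the cytokine that inflammasomes activate, stood at 600 and 169.5 CPM against 282 and 167 CPM (log2 change -0.78, SE 0.50), and was 0.41 without Ripk3-intact replicate 1. Only the first intact library was high. Among BCL2 family members and caspases 14 of 21 lay below 0 with a median of -0.08. Mcl1, the survival factor on which neutrophils depend, stood at 2057 and 1463 CPM against 1328 and 1365 CPM (log2 change -0.39, SE 0.23), and was -0.12 without Ripk3-intact replicate 1.

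NF-kB targets and inflammatory mediators lay below 0 in 19 of 27 cases with a median of -0.18, and groups did not overlap at 7 lower (25.9%) and 3 higher (11.1%), where all genes had 22.9% and 20.7%. Without Ripk3-intact replicate 1 the median was 0.0929. Ier3, an immediate early gene induced by NF-kB, stood at 100.4 and 55.5 CPM in the Ripk3-intact libraries and at 34.8 and 39.4 CPM in the Ripk3-null ones (log2 change -1.07, SE 0.40). Cxcl2, a neutrophil chemoattractant, stood at 20.8 and 8.26 CPM against 5.89 and 2.19 CPM (log2 change -1.84, SE 1.11). Socs3, a feedback inhibitor of cytokine receptors, stood at 348 and 115 CPM against 124 and 104 CPM (log2 change -1.02, SE 0.54). Rel, the NF-kB subunit c-Rel, lay the other way, at 11.8 and 9.72 CPM against 17.5 and 13.5 CPM (log2 change 0.53, SE 0.22). The first intact library was the highest of the 4 for Ier3, Cxcl2 and Socs3, as it was for the immediate early genes Fos and Junb. Without that library the log2 changes were -0.58 for Ier3, -1.03 for Cxcl2, -0.0101 for Socs3, -0.72 for Fos and -0.15 for Junb. Fos stood at 164 and 64.7 CPM against 54.2 and 24.1 CPM and Junb at 857 and 399 CPM against 388 and 330 CPM. Zfp36, which destabilises cytokine mRNAs, stood at 1407 and 1094 CPM against 819 and 762 CPM (log2 change -0.66, SE 0.38). The 19 immediate early genes had 13 below 0 and a median of -0.15.

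Interferon-stimulated genes lay below 0 in 26 of 34 cases with a median of -0.11, and groups did not overlap at 3 lower and 2 higher, shares of 8.82% and 5.88% where all genes had 22.9% and 20.7%. The median was 0.159 without Ripk3-null replicate 1 and 0.041 without Ripk3-intact replicate 2. Isg15 stood at 24.3 and 38.1 CPM in the Ripk3-intact libraries and at 16.4 and 28 CPM in the Ripk3-null ones (log2 change -0.49, SE 0.41). Oas1a, an antiviral RNA sensor, stood at 109 and 140 CPM against 61.2 and 120 CPM (log2 change -0.46, SE 0.39). Gbp3 lay higher, at 2.23 and 4.71 CPM against 5.62 and 4.86 CPM (log2 change 0.59, SE 0.40). The summed level was 4126 and 4551 CPM in the intact libraries and 3206 and 4547 CPM in the null ones, so the first null library alone was low.

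Genes of SHP-1, its partners and linked kinases, Ptpn6 included, had 16 of 28 below 0 and a median of -0.06. Groups did not overlap at 10 lower (35.7%) and 5 higher (17.9%), where all genes had 22.9% and 20.7%. Fcer1g, the signalling chain of Fc receptors, stood at 1227 and 1217 CPM in the Ripk3-intact libraries and at 795 and 949 CPM in the Ripk3-null ones (log2 change -0.49, SE 0.24). Lilrb4a, an inhibitory receptor, stood at 2991 and 2271 CPM against 1955 and 2008 CPM (log2 change -0.41, SE 0.31). Cbl, a ubiquitin ligase of these pathways, stood at 289 and 241 CPM against 381 and 293 CPM (log2 change 0.35, SE 0.21). Cell cycle genes had 12 of 28 below 0 and a median of 0.02. Hmgb2, a chromatin protein of dividing precursors, stood at 835 and 955 CPM against 621 and 732 CPM (log2 change -0.40, SE 0.17). The remaining pathway lists had medians between -0.09 and 0.04. Under total count scaling 5 of the 21 pathway medians were below 0, those of specific granule (-0.29), NADPH oxidase (-0.12), oxidative phosphorylation (-0.08), NF-kB (-0.0385) and immediate early genes (-0.0011), and the interferon median was 0.0256.

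**Figure D4:**
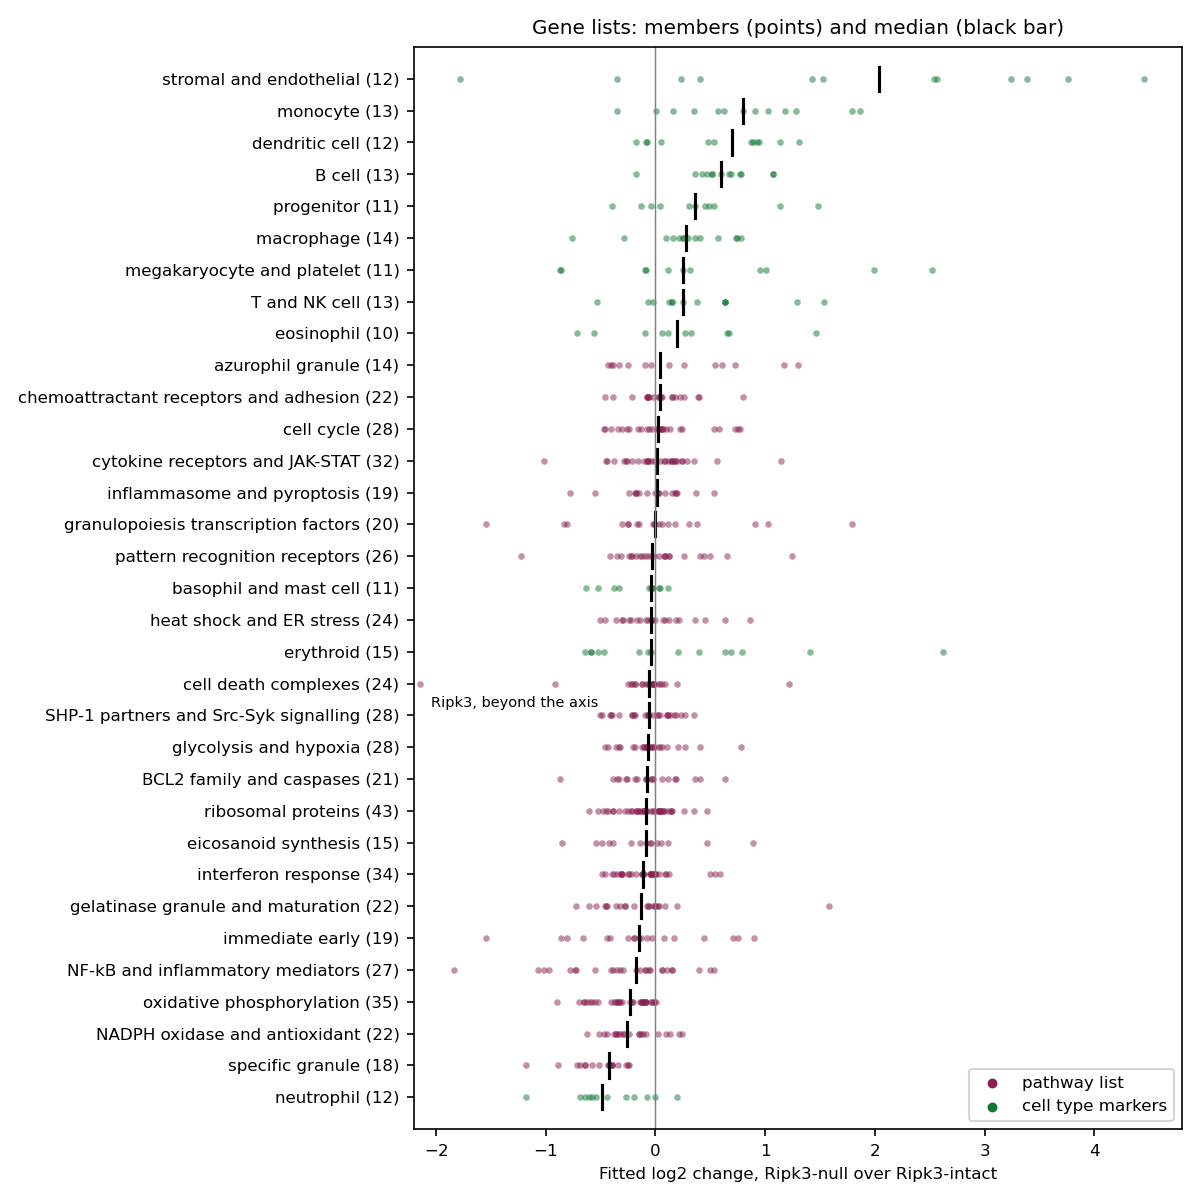
Fitted log2 change of every tested member (points) and the median (black bar) of 21 pathway lists and 12 lists of cell type markers, with the number tested in brackets. Ripk3, at -7.19, is drawn at the left edge. Specific granule members all lie left of 0, at -1.18 to -0.24, and the median of stromal and endothelial markers is the furthest right, at 2.03.

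Markers of other cells differed between the 4 libraries, and in bulk RNA fewer cells of a type and less RNA per cell cannot be told apart. Of 13 B cell markers 12 lay above 0 in the Ripk3-null libraries, where 49.9% of all genes did, with a median log2 change of 0.60, and 6 had groups not overlapping, all higher (20.7% of all genes). Cd79a, of the B cell receptor, stood at 107 and 142 CPM in the Ripk3-intact libraries and at 145 and 280.1 CPM in the Ripk3-null ones. Cd22 stood at 24.7 and 21.8 CPM against 35.7 and 62.1 CPM, and Ms4a1 at 24.2 and 24.5 CPM against 35.5 and 66.8 CPM. The second null library was the highest for all 3. The B cell median was 0.22 without that library. The summed B cell level was 2290 and 2295 CPM in the intact libraries and 2039 and 2782 CPM in the null ones, and Cd24a, which other marrow cells also express, made up most of it.

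Monocyte markers had 12 of 13 above 0 with a median of 0.80, and stromal and endothelial markers 10 of 12 with a median of 2.03. The medians rested on Ripk3-null replicate 1, without which their medians were 0.06 and -0.25. Fn1, fibronectin, stood at 14.9 and 41.4 CPM in the Ripk3-intact libraries and at 180.2 and 24.9 CPM in the Ripk3-null ones. Col1a1, a collagen of bone, stood at 7.85 and 9.52 CPM against 96.7 and 4.43 CPM. Klf4 stood at 2.03 and 4.27 CPM against 16.5 and 5.38 CPM. Ly6c2 went the other way, at 944 and 847 CPM against 632 and 775 CPM. Only the first null library was high in Fn1, Col1a1 and Klf4, and it was also the lowest of the 4 for specific granule genes. Dendritic cell markers had 9 of 12 above 0 (median 0.70), progenitor markers 8 of 11 (median 0.36) and macrophage markers 12 of 14 (median 0.28). Groups did not overlap higher at 4, 4 and 6 of them, shares of 33.3%, 36.4% and 42.9% where all genes had 20.7%. The dendritic cell median was 0.18 without Ripk3-null replicate 1 and 0.28 without Ripk3-null replicate 2. The progenitor median was 0.15 and the macrophage median 0.18 without Ripk3-null replicate 1, and the macrophage median was 0.10 without Ripk3-intact replicate 2. Erythroid markers summed to 793 and 3527 CPM against 1536 and 1582 CPM, lowest in the first intact library and highest in the second. No marker that passed the filter was at 0 in all 4 libraries. The part of these cells in the granule and mitochondrial values was not tested.

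The same loss of Ripk3 was measured in backgrounds that kept Casp8. With Mlkl and Ptpn6 deleted (Ripk3-/- Mlkl-/- Ptpn6∆PMN, 3 libraries, against Mlkl-/- Ptpn6∆PMN, 2 libraries), 3 genes were called lower by the edgeR test and 0 higher (0.0185% and 0 of 16206), and 4237 (26.1%) had an unadjusted p under 0.05. With Mlkl alone deleted (Ripk3-/- Mlkl-/-, 2 libraries, against Mlkl-/-, 3 libraries), 1 gene was called lower and 0 higher (0.00617% and 0), with 508 (3.13%) at an unadjusted p under 0.05. These groups share no library with each other or with the Casp8-deleted groups. In them Ripk3 fell by 6.29 and by 6.08 (log2, SE 0.56 and 0.64), and it passed the edgeR test in both (adjusted p = 1.58e-05 and 0.000246).

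All 18 members of the specific granule list lay below 0 in each of the 3 backgrounds. Groups did not overlap lower at 17 of them here, at 13 with Mlkl and Ptpn6 deleted, and at 0 with Mlkl alone deleted. Over all 16206 genes the same counts were 3706, 2560 and 1285. The group sizes also differed between the backgrounds, so these counts are not on one footing. Their median was -0.71 with Mlkl and Ptpn6 deleted, where 45.1% of all genes lay below 0, and -0.12 with Mlkl alone deleted, where 47.3% did. Camp had log2 changes of -0.40 and -0.34 there, against -1.18 here, and the fitted difference from the Casp8-intact change was -0.78 (SE 0.53, edgeR adjusted p = 0.635). The list's difference between backgrounds was not tested. Oxidative phosphorylation genes had medians of -0.04 and 0.02 in those backgrounds, with 19 and 15 of 35 below 0, against -0.23 and 34 here. Interferon genes differed in direction, with 33 of 34 below 0 and a median of -0.78 with Mlkl and Ptpn6 deleted, and 0 of 34 below 0 and a median of 0.62 with Mlkl alone deleted. Here the median was -0.11. Cell cycle medians were 0.76 and 0.28 there, with 1 of 28 below 0 in each, against 0.02 here. However, groups did not overlap at 0 of the 28 in either of those backgrounds. Mean cell cycle log2(CPM + 0.5) was 5.55, 5.54 and 4.17 in Ripk3-/- Mlkl-/- Ptpn6∆PMN. In Mlkl-/- Ptpn6∆PMN it was 4.11 and 4.85, so replicate 3 of the former lay between them. With Mlkl and Ptpn6 deleted the specific granule list was not alone in lying lower. Gelatinase granule and maturation genes had 22 of 22 below 0 (median -0.65) and glycolysis and hypoxia genes 26 of 28 (median -0.51). Neutrophil markers had 12 of 12 below 0 (median -0.66), while B cell and T and NK cell markers had medians of 1.45 and 1.00. The B cell level, as mean log2(CPM + 0.5), was 7.07, 6.59 and 5.01 in the null libraries of that background. It was 4.92 and 5.31 in the intact ones, so null replicate 3 again lay between these. The part of cell composition in these values was not tested.

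**Figure D5:**
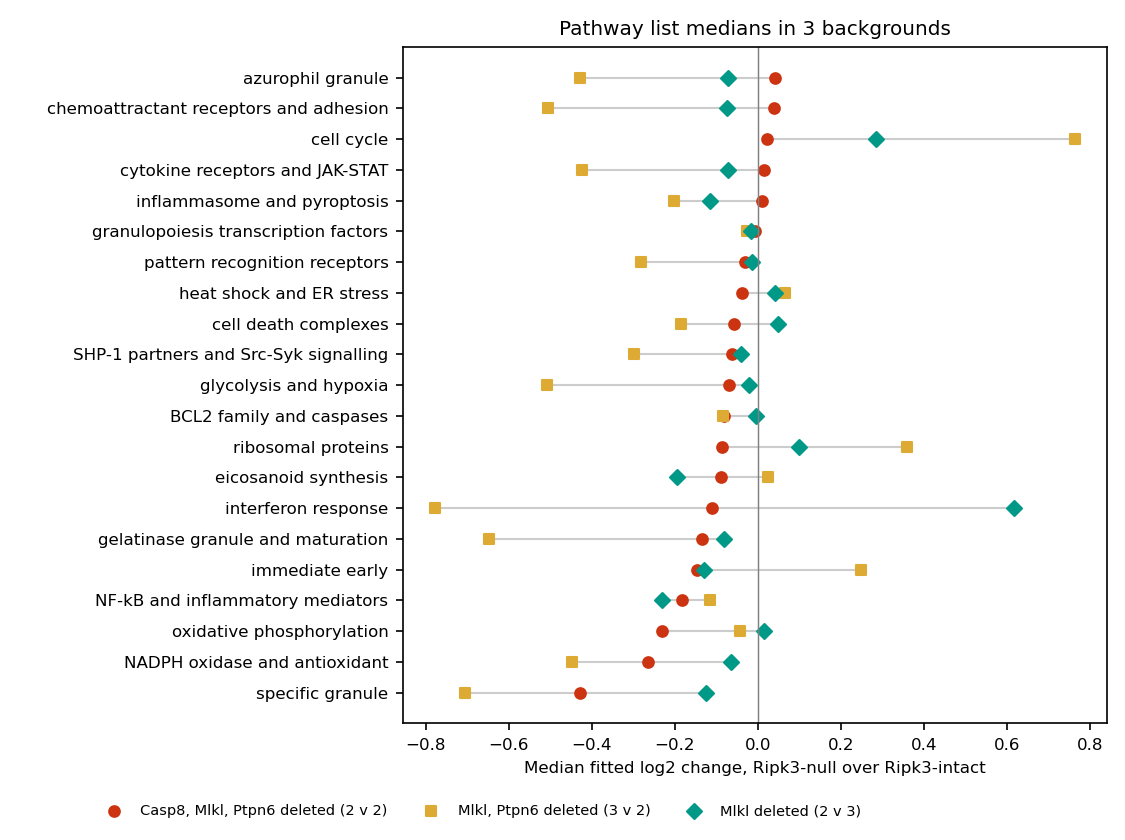
Median fitted log2 change of 21 pathway lists on loss of Ripk3 in 3 genetic backgrounds, with the number of Ripk3-null and Ripk3-intact libraries in the key. The specific granule median is below 0 in all 3, at -0.43, -0.71 and -0.12, and the interferon response medians lie at -0.11, -0.78 and 0.62.

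For Ripk3 loss with Casp8 deleted less that with Casp8 intact (Ptpn6 and Mlkl deleted in both), edgeR called Sncaip alone (0.00617% called higher, and 0 lower), with 1505 genes (9.29%) at an unadjusted p under 0.05. DESeq2 called 10 genes, Sncaip among them. Sncaip, which encodes the synuclein-binding protein synphilin-1, stood at 2.08 ± 2.24 CPM in the Ripk3-null libraries and 0.746 ± 0.162 CPM in the Ripk3-intact ones (SD, n = 2 each). With Casp8 intact it stood at 0.198 ± 0.0065 (SD, n = 3) and 5.80 ± 2.75 CPM (SD, n = 2). By edgeR the difference was 6.31 on the log2 scale (SE 0.83), with an adjusted p of 0.00658. The call was lost when any of 4 libraries was left out: either Ripk3-intact library, Ripk3-null replicate 2, or Mlkl-/- Ptpn6∆PMN replicate 2. Over all libraries left out in turn the difference was 4.27 to 7.15, at edgeR adjusted p-values of 4.145e-06 to 0.1096. It was also lost when only the libraries compared were fitted (edgeR adjusted p = 0.838). The next smallest p-values belonged to Card6 (log2 difference 0.83, SE 0.16) and Wdr7 (0.90, SE 0.17), both at an edgeR adjusted p of 0.213. DESeq2 called both, at adjusted p-values of 0.000962 (Card6) and 0.0004559 (Wdr7). Card6 stood at 136 ± 11.2 CPM null against 95.6 ± 11.0 CPM intact here (SD, n = 2 each), and at 125 ± 6.68 (SD, n = 3) against 155 ± 1.07 CPM (SD, n = 2) with Casp8 intact.

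For the difference from the background with both Casp8 and Ptpn6 intact, 0 genes passed the edgeR test (0%). DESeq2 called 2, and 371 (2.29%) had an unadjusted edgeR p under 0.05. The smallest p belonged to Slc15a2, a peptide transporter, with a log2 difference of 7.01 (SE 1.51). It stood at 33.6 ± 9.18 CPM null and 16.7 ± 0.494 CPM intact here (SD, n = 2 each), and at 0.497 ± 0.505 (SD, n = 2) against 33.0 ± 30.7 CPM (SD, n = 3) with Mlkl alone deleted, a spread as wide as the mean. Uqcrh, a subunit of respiratory complex III, had a log2 difference of -0.82 (SE 0.24).

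Within 10 Mb of Ripk3 on chromosome 14, 193 genes were tested besides Ripk3 and 0 were called. Of these 193, 10 (5.18%) had an unadjusted p under 0.05 where 7.26% of all genes did, and groups did not overlap at 47 lower (24.4%) and 42 higher (21.8%). Sdr39u1, 0.112 Mb from Ripk3, was picked after its values were seen. It stood at 5.37 and 5.34 CPM in the Ripk3-intact libraries and at 1.46 and 2.62 CPM in the Ripk3-null ones (log2 change -1.39, SE 0.46, adjusted p by edgeR 0.597). In the other backgrounds its log2 changes were 0.27 and 0.37. Psme2, given above and also picked after its values were seen, starts at -0.198 Mb relative to Ripk3. Its log2 change was -0.48 (SE 0.16) here, -0.45 with Mlkl and Ptpn6 deleted and 0.03 with Mlkl alone deleted. No gene within 10 Mb of Mlkl, Casp8 or Ptpn6 was called either, among 170, 102 and 200 tested. The shares with an unadjusted p under 0.05 were 8.82%, 6.86% and 3%. Grcc10, one of the 12 lower genes above, lies beside Ptpn6 at chr6:124739183-124741069 of GRCm38.p6 and stood at 74.1 and 73.8 CPM in the Ripk3-intact libraries against 44.8 and 46.8 CPM in the Ripk3-null ones.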

How the data were processed

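The deposited values are estimated counts, which the authors produced with Salmon 0.14.1 against GRCm38.p6 according to the submitters' processing notes. DESeq2 is named there too. They cover 35741 gene symbols in 25 libraries. The step from transcripts to genes is not given in the sources used here. All values were rounded, since 24.9% were not whole.

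Left out were 1 library with conflicting labels and a group of a single library. A model of 23 libraries in 9 groups was fitted with edgeR 4.0.16 (R 4.3.3). It used TMM, filterByExpr with a count of at least 10 in enough libraries and 15 in total, and quasi-likelihood tests on 14 residual degrees of freedom. Adjustment was by Benjamini-Hochberg over 16206 genes (threshold 0.05). CPM used effective library sizes. Replicates of neither group were duplicates: chi-square per degree of freedom was 25.3 (Ripk3-intact) and 17.6 (Ripk3-null). Alternatives included DESeq2 1.42.0. Positions and promoters came from RefSeq (GRCm38.p6) and lengths from GENCODE for 14430 genes. Figures used matplotlib 3.10.9.

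The comparison, the 21 pathway and 12 marker lists and the naming rule were chosen with earlier results of these data known. The rule named the targeted genes, called genes, the 12 smallest p-values in each direction with at least 5 CPM and no overlap, the smallest p-values of the difference tests and, per list, the highest and lowest changes and levels. Predicted genes were counted, not named. The pipeline was tested on simulated data.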

Additional observations from a re-analysis of the deposited data

Results flagged for a closer look

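Sncaip is flagged because its response to Ripk3 loss differed between backgrounds by the test of that difference. The log2 difference was 6.31 between the background with Casp8, Mlkl and Ptpn6 deleted and the one with Casp8 intact. The values that set it are 1 null library at 3.67 CPM beside 0.503 CPM in the other null library here, and 5.80 ± 2.75 CPM (SD, n = 2) in Mlkl-/- Ptpn6∆PMN.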

How the results depend on the processing

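Ripk3 passed the test in every alternative run, with log2 changes of -9.58 to -6.29. The number of genes called was 2 with no filter on low counts, 3 with DESeq2, 3 when only the compared libraries were fitted, and 1 to 2 when each library was left out. The added genes were predicted genes, Rps27 (when only the compared libraries were fitted; 10.5 and 11.5 CPM against 1.74 and 1.95 CPM) and Zfp69 (without Ripk3-null replicate 2; 1.52 and 1.26 CPM against 6.03 and 0.714 CPM). For the difference with Casp8 intact the counts were 2, 10 and 0 in the same order and 0 to 2 on leaving out libraries. For the difference with Casp8 and Ptpn6 intact DESeq2 called 2, and leaving out libraries gave 0 to 1. The labels give replicate numbers only. Deviations of same-numbered libraries correlated at -0.068, so they were not treated as paired, and a replicate block gave 1 call (Ripk3, -7.21). The specific granule median was -0.20 with the B cell covariate and -0.66 to -0.28 on leaving out libraries. The oxidative phosphorylation median was -0.0935 without the length trend, -0.0836 with 20 below 0 under total count scaling (both added after seeing the data), and -0.32 to -0.15 on leaving out libraries. With the B cell covariate Casp8 was -0.0774, Atp5b -0.045 and Zbp1 0.0322. Leaving out libraries gave ranges across 0 for Casp8 (-0.27 to 0.29), Atp5b (-0.0406 to 0.0465), Zbp1 (-0.62 to 0.068), Il1b (-1.42 to 0.41), Elane (-0.13 to 1.85), Fn1 (-0.15 to 2.78), Col1a1 (-0.94 to 3.48) and Zfp69 (-0.93 to 2.11). So did the medians of NF-kB (-0.3157 to 0.0929), interferon (-0.3503 to 0.1591), azurophil (-0.1337 to 0.2074), cell cycle (-0.3218 to 0.3909), inflammasome (-0.092 to 0.1292), cell death (-0.0813 to 0.0166) and SHP-1 partner genes (-0.1261 to 0.0166), among other lists. The causes were not tested. With 2 libraries a group, each left-out fit assumes that the lone library varies like the other groups.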
